A study of Mus musculus with 28 samples.

Results

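The cartilage genes examined here are 9 genes chosen by name, Sox9, Sox5, Sox6, Acan, Hapln1, Matn1, Matn3, Comp, and Chad, out of 52636 genes in the table of RNAseq read counts. They were followed in 21 single first molar tooth germs of C57BL/6JOlaHsd mice, with 7 teeth each at E13 (bud stage, from 7 embryos), E14 (cap stage, from 6 embryos), and E16 (bell stage, from 5 embryos). In the labels E13 stands for E13.5, E14 for E14.5, and E16 for E16.5, and the teeth are named below by embryo and side. E15 teeth (6 teeth from 6 embryos, labeled E15) are present only in a second count table, which was normalized on its own. The labels name no mutation or treatment, and the groups differ in developmental stage. Each tooth germ was homogenized whole with a little surrounding tissue, so the data hold no position relative to Meckel's cartilage, and fewer cells of a type and less RNA per cell cannot be told apart.

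Meckel's cartilage is the rod of cartilage that runs inside the developing lower jaw, beside the molars. Cartilage is built by chondrocytes, in which Sox9 starts the program and Sox5 and Sox6 act together with it to turn on the matrix genes. The matrix is a mesh of type II collagen filled with aggrecan (Acan), a large proteoglycan that holds water and is fixed to hyaluronan by the link protein Hapln1. The matrilins Matn1 and Matn3, the thrombospondin family member Comp, and chondroadherin (Chad) connect collagen fibers with the rest of the matrix and with cells. Sox9 is also known from the epithelium of the developing tooth and of other organs, and a Sox gene without cartilage matrix is therefore no marker of cartilage.

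The sequences that lie before the transcription starts of these genes are shown first, because the 3 Sox proteins bind short letters of the kind AACAAT. The part of such letters in the changes between stages was not tested. The RefSeq table of promoters (GRCm38.p6) held windows for 7 of the 9 genes, and Sox9 and Comp have none there. The 250 bases before each start were searched on both strands for 3 motifs, which are printed in capitals. The first, AACAAT, occurred in 9.42% of the 32851 windows of all genes. The second, ACAATG, occurred in 10.7% and overlaps with the first motif in Sox6. The third, TATAAA (the TATA box), occurred in 12.4%. Acan and Sox5 are shown as genes that were higher at E16, Sox6 as the one that was lower, and Matn1 as the gene with the fewest reads.
Acan (chr7:79052976-79053225, plus strand): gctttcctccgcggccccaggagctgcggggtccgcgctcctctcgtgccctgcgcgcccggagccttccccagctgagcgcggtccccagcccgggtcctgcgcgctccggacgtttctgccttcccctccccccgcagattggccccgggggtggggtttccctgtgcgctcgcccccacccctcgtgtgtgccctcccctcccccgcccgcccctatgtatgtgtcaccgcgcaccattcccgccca
Sox5 (chr6:143947107-143947356, minus strand): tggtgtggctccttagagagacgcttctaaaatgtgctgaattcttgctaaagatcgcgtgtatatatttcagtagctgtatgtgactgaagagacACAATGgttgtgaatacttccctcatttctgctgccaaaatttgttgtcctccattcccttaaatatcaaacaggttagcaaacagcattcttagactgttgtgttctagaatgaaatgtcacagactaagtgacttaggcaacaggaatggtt
Sox6 (chr7:115824711-115824960, minus strand): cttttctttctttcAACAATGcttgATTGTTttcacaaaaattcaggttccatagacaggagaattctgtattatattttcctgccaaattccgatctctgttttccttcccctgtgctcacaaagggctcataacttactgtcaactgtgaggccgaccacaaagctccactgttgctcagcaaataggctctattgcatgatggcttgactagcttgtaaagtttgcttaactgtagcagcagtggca
Matn1 (chr4:130944135-130944384, plus strand): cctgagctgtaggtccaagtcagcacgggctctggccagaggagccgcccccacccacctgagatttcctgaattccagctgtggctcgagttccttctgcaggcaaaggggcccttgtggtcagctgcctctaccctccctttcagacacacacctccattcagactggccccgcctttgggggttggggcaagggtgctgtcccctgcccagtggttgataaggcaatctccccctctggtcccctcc
The Acan window held none of the letters and had a GC content of 74.4%, compared with a median of 52.4% over all windows. The Sox5 window lies inside the gene, at a start that is far downstream of the first one, and held 1 match of the second motif. Of the 6 windows of Sox6, the one shown was picked for having the most matches, 2 of the first motif and 1 of the second, and is also inside the gene. Of the other 5 windows, none held the first motif, 1 held 2 matches of the second, and 1 held 1 match of the third. The Matn1, Matn3, and Hapln1 windows held no match, and the Chad window held 1 match of the third. The Hapln1 window (from 89540386) lies inside the gene, which starts at 89539796. No other of the 12 windows of the members than the Sox6 window shown held the first motif. A match is a stretch of letters and not a measured binding site.

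Sox9, Sox5, and Sox6 were present in every tooth, together with Hapln1, whereas the 5 remaining matrix genes were near the lower limit of the measurement. Over the 21 teeth, the reads counted were 60532 for Sox6, 44590 for Sox9, 13336 for Sox5, and 11214 for Hapln1. Acan had 498 reads, Matn3 161, Chad 110, Comp 89, and Matn1 17, in libraries of 17814073 to 27115729 counted reads. Per kb of exon, which allows genes to be compared, the mean normalized read count was 490 for Sox9, 191 for Sox6, 88.3 for Hapln1, and 42.8 for Sox5. The same quantity was 3.06 for Acan, 2.97 for Chad, 2.49 for Matn3, 1.44 for Comp, and 0.42 for Matn1. Sox9 thus stood at the 91.6th percentile of 21896 protein-coding genes and Acan at the 33.7th.

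**Figure D1:**
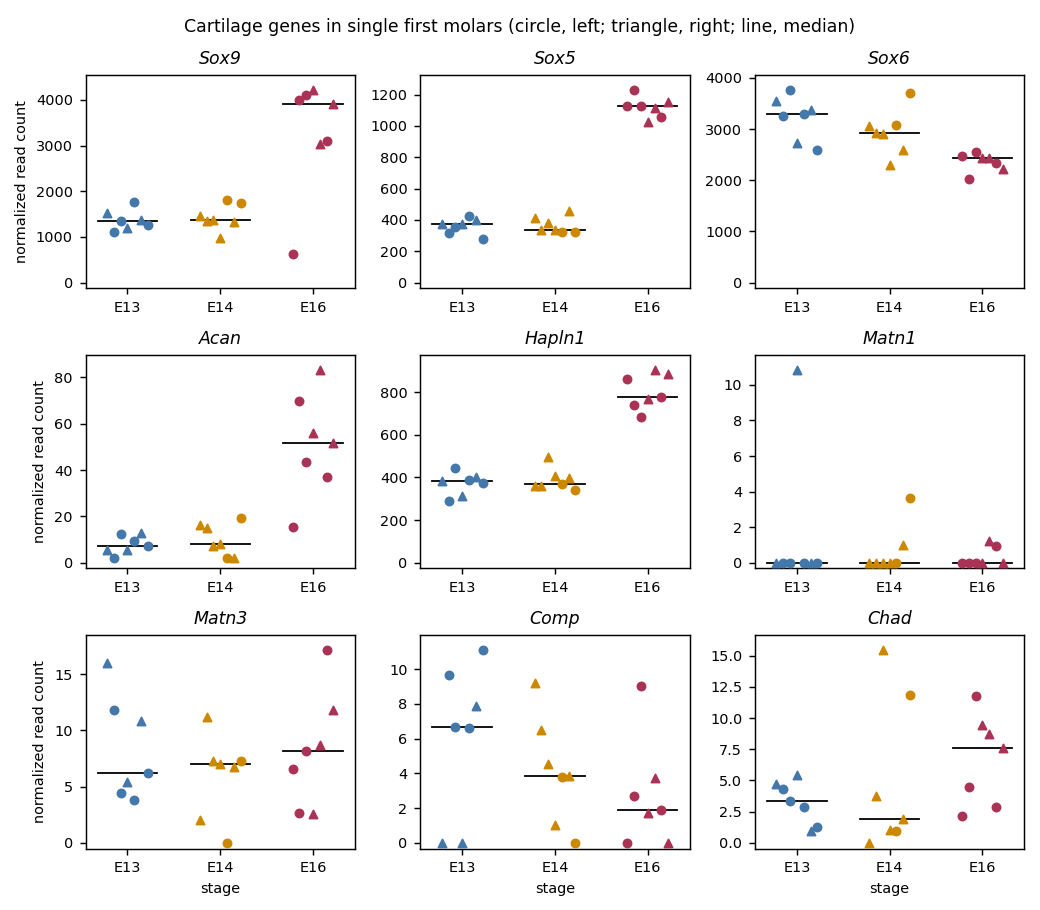
Normalized read count (vertical axis, each panel with its own scale) of the 9 genes by stage (horizontal axis), with 1 point per tooth (circle, left; triangle, right) and a line at the median of 7 teeth. Sox5 and Hapln1 at E16 lie above all the earlier teeth, Sox9 does so in 6 of 7 teeth with the remaining tooth at 629, and Matn1, Matn3, Comp, and Chad stay below 18 in all teeth.

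Sox9, which chondrocytes need from their beginning, is located on chromosome 11 (GRCm38, 112782224 to 112787760, plus strand). Its normalized read count was 1107, 1356, and 1760 (lowest, median, and highest of 7 teeth) at E13, 966, 1371, and 1797 at E14, and 629, 3904, and 4217 at E16. The first 2 stages covered the same range. At E16, 6 teeth had between 3025 and 4217, above all the teeth of the earlier stages, and the left tooth of embryo 3 had 629, below all of them. Between E14 and E16 Sox9 rose by a log2 fold change of 1.19 ± 0.24 (SE; 2.29-fold, edgeR quasi-likelihood test, adjusted p = 0.000553). Between E13 and E14 the change was 0.07 ± 0.24 and did not pass the test (adjusted p = 0.882). Without the left tooth of embryo 3 at E16, the rise from E14 to E16 was 1.39 ± 0.12 (adjusted p = 1.73e-09).

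The left tooth of embryo 3 at E16 also stood apart in other genes, and its library was the smallest of the 21. Its summed normalized read count of 9 bone genes was 29034, compared with 113838 to 154185 in the other E16 teeth. Most of that sum was Col1a1, with 24586 in this tooth and 103608 to 144971 in the others. Alpl (1353) and Sp7 (877) were also the lowest of E16 in this tooth. Phex (116) was the highest of E16 there, and Ibsp, Dmp1, Spp1, and Ifitm5 were lowest in other teeth. The sum of 5 genes of the tooth mesenchyme (Msx1, Pax9, Barx1, Dlx2, and Lhx6) was 10027 compared with 20062 to 28763, and that of 4 genes of the tooth epithelium was 22026 compared with 33012 to 44036. Sox5, Sox6, and Hapln1 of this tooth were within the range of the other E16 teeth, at 1129, 2473, and 863. The part of these differences in the Sox9 value was not tested.

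Sox5 (chromosome 6, 143828425 to 144781977, minus strand) encodes a partner of Sox9 without an activation domain of its own. The normalized read count of Sox5 was 275, 372, and 426 (lowest, median, and highest) at E13, 320, 338, and 455 at E14, and 1027, 1128, and 1229 at E16. All 7 teeth at E16, including the left tooth of embryo 3, were thus above all 14 earlier teeth, and the E13 and E14 teeth overlapped. Sox5 rose 3.05-fold between E14 and E16 (log2 fold change 1.61 ± 0.10 SE, adjusted p = 5.93e-12), whereas the change between E13 and E14 was 0.02 ± 0.10 (adjusted p = 0.890). The E16 teeth were also close to each other, with the highest 1.20 times the lowest. Noncoding RNAs lie within and opposite to Sox5, and the one that overlaps its exons, Sox5os1, had a mean of 0.19 reads per tooth.

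Sox6 (chromosome 7, 115470872 to 116038796, minus strand), which pairs with Sox5 in cartilage, moved in the opposite direction. The normalized read count of Sox6 was 2588, 3285, and 3764 (lowest, median, and highest) at E13, 2293, 2920, and 3694 at E14, and 2023, 2434, and 2551 at E16. The teeth at E16 were all below those of E13, though by a small margin, and overlapped with those of E14. Sox6 fell by 0.32 ± 0.09 on the log2 scale between E14 and E16 (adjusted p = 0.0120) and by 0.46 ± 0.10 between E13 and E16 (adjusted p = 0.000357). The change from E13 to E14 was -0.14 ± 0.09 (adjusted p = 0.332). The fall from E14 to E16 was no longer called without the left tooth of embryo 8 at E14 (log2 fold change -0.24, adjusted p = 0.0535), which had the highest value of that stage.

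Per kb of exon the order of the 3 Sox genes was the same at each stage, with a median of 328, 331, and 944 normalized reads for Sox9 at E13, E14, and E16. The medians per kb of Sox6 were 221, 197, and 164, and those of Sox5 were 25.9, 23.5, and 78.5. Sox5 remained the lowest of the 3 also after its rise.

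Acan (chromosome 7, 79053483 to 79115099, plus strand), the core protein of the main cartilage proteoglycan, had between 2 and 21 reads in each of the E13 and E14 teeth and between 14 and 78 in the E16 teeth. Its normalized read count was 2.14, 7.39, and 12.8 (lowest, median, and highest) at E13, 1.90, 8.03, and 19.1 at E14, and 15.2, 51.5, and 83.2 at E16. The E16 teeth were all above the E13 teeth, but at 15.2 the left tooth of embryo 3 was within the range of E14. The other E16 teeth had at least 37.1. Acan rose 5.05-fold between E14 and E16 (log2 fold change 2.34 ± 0.44 SE, adjusted p = 0.000231), whereas the change between E13 and E14 was 0.33 ± 0.48 (adjusted p = 0.686). Acan reached the filter on low counts only through the E16 teeth, so that its presence among the tested genes already depends on its being higher there.

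Hapln1 (chromosome 13, 89539796 to 89611652, plus strand), the link protein of aggrecan and of the related proteoglycan versican, was the only matrix gene of the 9 with at least 272 reads in each tooth. Its normalized read count was 291, 384, and 446 (lowest, median, and highest) at E13, 340, 369, and 496 at E14, and 683, 775, and 904 at E16. The teeth at E16 were all above the teeth of the earlier stages, which overlapped with each other. Hapln1 rose 2.05-fold between E14 and E16 (log2 fold change 1.04 ± 0.10 SE, adjusted p = 1.87e-08), and the change between E13 and E14 was 0.07 ± 0.10 (adjusted p = 0.695). Per kb of exon, its median at E16 was 131 normalized reads compared with 6.89 for Acan, the proteoglycan that it binds in cartilage.

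Matn1 (chromosome 4, 130944385 to 130955475, plus strand), a matrilin found almost only in cartilage, had 10 reads at E13, 5 at E14, and 2 at E16. These came from 1, 2, and 2 of 7 teeth, and the 10 reads at E13 were all in the right tooth of embryo 5. More of the other cartilage genes had their lowest than their highest E13 value in that tooth. The lowest were Col9a1 (14.1 normalized reads), Col9a2 (299), Itga10 (257), Matn4 (18.4), Ihh (3.25), and Panx3 (245). Pth1r (1617), Fgfr3 (817), and Ucma (0) were lowest there as well, whereas Col9a3 (185) and Chad (5.42) were highest. The sum of 7 cartilage collagens in that tooth, 13449, was within the range of the stage (12662 to 16729).

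Matn3 (chromosome 12, 8947929 to 8972028, plus strand), the matrilin of the growth plate, was counted in 20 of 21 teeth, with a normalized read count of 3.79, 6.16, and 16.02 (lowest, median, and highest) at E13, 0, 7.02, and 11.2 at E14, and 2.58, 8.14, and 17.1 at E16. Comp (chromosome 8, 70373558 to 70382066, plus strand), which binds collagens in cartilage and tendon, ranged from 0 to 11.1 at E13, 0 to 9.20 at E14, and 0 to 9.04 at E16, with medians of 6.67, 3.86, and 1.90. Chad (chromosome 11, 94565047 to 94569127, plus strand), a small leucine-rich protein that holds chondrocytes to collagen, ranged from 0.98 to 5.42 at E13, 0 to 15.4 at E14, and 2.18 to 11.8 at E16, with medians of 3.34, 1.93, and 7.60. The stages of these genes overlapped throughout.

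Matn1, Matn3, Comp, and Chad did not pass the filter on low counts and have no test in the main comparison. When all genes with any count were tested, their unadjusted p values between E16 and E13 were 0.133, 0.948, 0.196, and 0.158. No difference was thus detected at this depth, where the SE of their log2 fold changes was 1.30, 0.57, 0.83, and 0.70. Chad lies within an intron of Acsf2 on the opposite strand, a gene with a mean of 1068 reads per tooth, and the strand setting of the counting was not given in the sources used here. Reads of Chad and unspliced reads of Acsf2 can therefore not be told apart.

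Among all 19101 genes tested, 19.7% were called between E13 and E14 at an adjusted p below 0.05 (11.3% higher and 8.47% lower at E14), and of the 5 members tested, 0 were called. No member was called by DESeq2 either, and 0 of the 5 had an unadjusted p below 0.05. Between E14 and E16, 28.1% of the genes tested were called (15% higher and 13.1% lower at E16), and of the 5 members 4 were higher (Sox9, Sox5, Acan, and Hapln1) and 1 was lower (Sox6). The median log2 fold change of the 5 was 1.19, compared with 0.00 over all genes tested. Between E13 and E16, 41.3% of the genes were called (21.6% higher and 19.6% lower), and of the members the same 4 were higher and the same 1 was lower. With 4 of 9 genes below the filter and Acan in the test through its E16 level, these counts describe the genes that could be tested and not the whole list.

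Markers of other cell types moved between E14 and E16 as well. Of 4 genes of the tooth epithelium, in which Sox9 is also known, 3 were higher (Krt5, Krt14, and Shh) and Fgf4 was lower at E16. Their summed normalized read count was 14988, 16266, and 19854 (lowest, median, and highest) at E14 and 22026, 36507, and 44036 at E16, and none of the 4 was at 0 in any tooth. Of 5 genes of the tooth mesenchyme, 3 were lower (Msx1, Pax9, and Barx1, the last with an adjusted p of 0.0479), with a sum of 31296 to 36505 at E14 and 10027 to 28763 at E16. The call of Barx1 was lost when any 1 of 17 teeth was left out (adjusted p of 0.0503 to 0.0854). The sum of 9 bone genes had a median of 79103 at E14 and 145059 at E16, with 1 of the 8 tested higher (Alpl) and 1 lower (Phex, -2.35 ± 0.17). Most of this sum was Col1a1, with a mean of 79835 at E14 and 115687 at E16. Col1a1 was not called at this step (adjusted p = 0.0859), but was called without the left tooth of embryo 3 at E16 (adjusted p = 3.49e-06). The part of these changes in the changes of the 5 members was not tested.

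The teeth of E14 and E16 did not overlap in 2 of the 5 members, Sox5 and Hapln1, which were higher at E16, compared with 5.87% of all genes tested. No member was lower without overlap, compared with 4.95% of the genes. Between E13 and E16, 3 of the 5 did not overlap upwards (Sox5, Acan, and Hapln1), compared with 9.86% of all genes, and 1 downwards (Sox6), compared with 8.87%. Acan was among the tested genes only through its E16 level, so the filter favored its place in this count. Between E13 and E14 there was no such member in either direction, compared with 6.43% of the genes higher and 3.49% lower at E14.

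**Figure D2:**
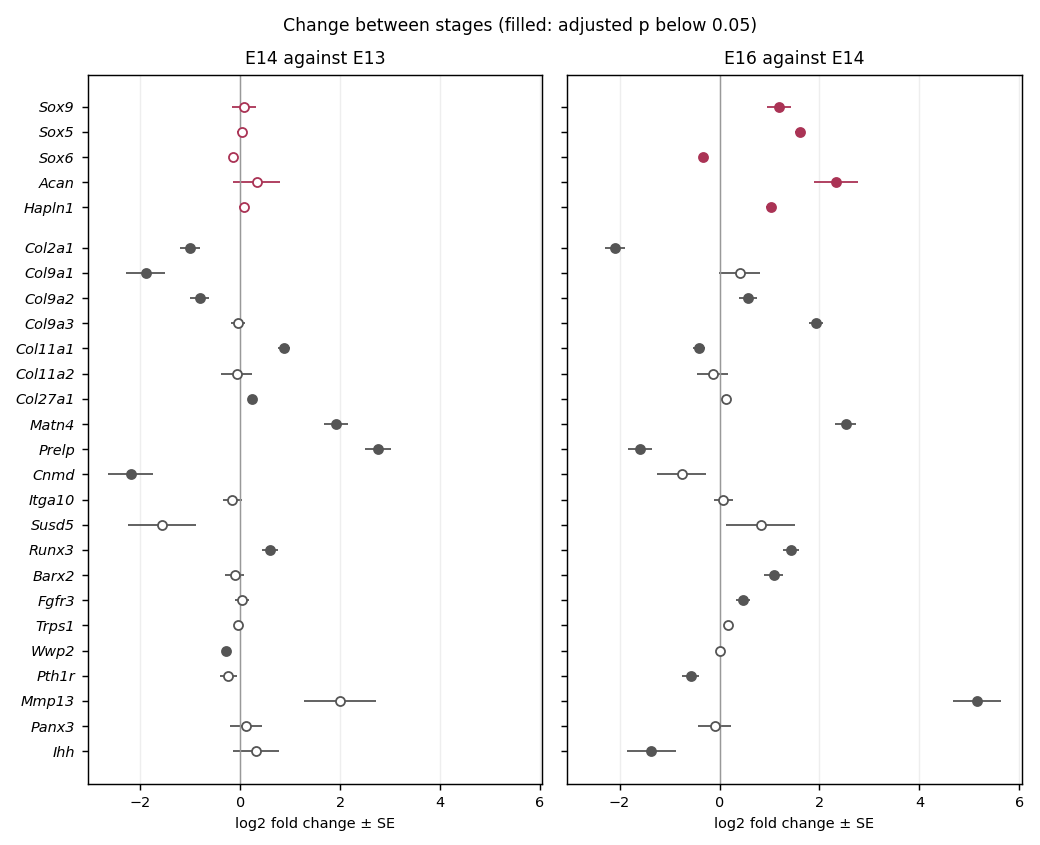
Log2 fold change (horizontal axis, bars ± SE, edgeR) of the 5 members tested (red) and of the 21 other cartilage genes tested (gray) from E13 to E14 and from E14 to E16, filled where the adjusted p is below 0.05. Between E14 and E16, Sox5 lies at 1.61 and Acan at 2.34 to the right, and Col2a1 lies at -2.10 to the left.

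The other genes of cartilage did not share one direction. Of 30 such genes listed (collagens, other matrix and surface genes, regulators, and genes of hypertrophic cartilage), 21 passed the filter. Of these, 5 were higher and 5 lower at E14 than at E13, 7 were higher and 5 lower at E16 than at E14, and 9 were higher and 5 lower at E16 than at E13. Their median log2 fold change was -0.04, 0.13, and 0.01 in these comparisons. Of all genes tested, 11.3% were higher and 8.47% lower in the first comparison. These shares were 15% and 13.1% in the second and 21.6% and 19.6% in the third. Col9a1 and Cnmd passed the filter only through E13 teeth and Mmp13 only through E16 teeth, which favored their calls. The call of Wwp2 at E14 was lost when any 1 of 4 teeth was left out, and that of Ihh between E14 and E16 with any 1 of 7. The 9 genes below the filter had between 6 and 184 reads in all teeth together, and included Snorc with 6 reads, Nkx3-2 with 19, Epyc with 31, and Col10a1, the collagen of hypertrophic chondrocytes, with 35.

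Col2a1, the type II collagen that defines cartilage, fell at each step while Acan and Hapln1 did not. Its normalized read count was 3246, 3584, and 3873 (lowest, median, and highest) at E13, 1298, 1491, and 2735 at E14, and 148, 438, and 542 at E16, and the 3 stages did not overlap. It fell by 1.00 ± 0.19 on the log2 scale between E13 and E14 (adjusted p = 0.000525) and by 2.10 ± 0.20 between E14 and E16 (adjusted p = 1.79e-08). Per kb of exon, the median of Col2a1 at E13 was 388 normalized reads, compared with 0.99 for Acan in the same teeth.

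Among the remaining cartilage collagens, Col9a1 fell from a median of 37.8 at E13 to 9.31 at E14 (log2 fold change -1.89 ± 0.39, adjusted p = 0.00113). Col9a3 rose from 139 at E14 to 543 at E16 (1.93 ± 0.14, adjusted p = 8.76e-11). Col9a1 and Col9a3 are chains of the same type IX collagen, which coats type II collagen in cartilage. Col11a1 was highest at E14 (0.87 ± 0.12 against E13 and -0.41 ± 0.12 at E16 against E14), and Col27a1 rose by 0.23 ± 0.07 at E14 (adjusted p = 0.0233, and 0.0561 without the right tooth of embryo 1 at E14). Col9a2 changed by -0.82 ± 0.18 at E14 (adjusted p = 0.00215) and by 0.57 ± 0.18 at E16 (adjusted p = 0.0197). The second call was lost without the left tooth of embryo 6 at E16 (adjusted p = 0.0513). Of the 7 collagens, all of them tested, 2 rose and 3 fell between E13 and E14, and 2 rose and 2 fell between E14 and E16. Of all genes tested, 11.3% rose and 8.47% fell at the first step, and 15% rose and 13.1% fell at the second.

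Matn4, a matrilin that is less bound to cartilage than Matn1 and Matn3, rose strongly. Its normalized read count was 18.4, 42.9, and 69.0 (lowest, median, and highest) at E13, 113, 134, and 227 at E14, and 547, 775, and 1131 at E16. The stages did not overlap, and the changes were 1.91 ± 0.24 (adjusted p = 2.72e-06) and 2.52 ± 0.22 (adjusted p = 2.64e-09) at the 2 steps. Prelp, a leucine-rich matrix protein, rose by 2.76 ± 0.26 at E14 and then fell by 1.60 ± 0.24. Cnmd, which keeps vessels out of cartilage, fell by 2.20 ± 0.45 at E14, from a median of 45.0 to 7.45. Cnmd and Col9a1 reached the filter on low counts only through the E13 teeth, where they are high (7 of 7 teeth above the limit, compared with 3 of 7 at E14).

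Of the regulators, Runx3 rose at both steps (0.59 ± 0.16 and 1.43 ± 0.16) and Barx2 at E16 (1.09 ± 0.19). Pth1r, the receptor for parathyroid hormone-related protein in the growth plate and in bone, fell by 0.58 ± 0.17 at E16. Fgfr3, which slows the growth of cartilage, rose by 0.47 ± 0.14 between E14 and E16. Among the 4 genes of hypertrophic cartilage, Mmp13 rose by 5.16 ± 0.48 at E16, from a median of 17.7 to 523 normalized reads, and Panx3 did not pass the test. Mmp13 reached the filter only through the E16 teeth (7 of 7 above the limit, 1 at E13 and 5 at E14). The change of Ihh was -1.37 ± 0.49 (adjusted p = 0.0378), and the call was lost when any 1 of 7 teeth was left out. Without the left tooth of embryo 8 at E14, which had 76.5 compared with at most 23.5 in the others, it was -0.76 ± 0.44 (adjusted p = 0.217), and with one of the other 6 left out the adjusted p was 0.0503 to 0.0832. Mmp13 and Panx3 are also genes of bone-forming cells.

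Several relatives of the scarce members were abundant in the teeth. Vcan (versican), the proteoglycan that takes the place of aggrecan in soft tissue and also binds Hapln1, had a median of 3081, 3468, and 5720 normalized reads per kb at E13, E14, and E16. The values of Acan on the same scale were 0.99, 1.07, and 6.89. Vcan rose by 0.70 ± 0.08 on the log2 scale between E14 and E16 (adjusted p = 2.85e-07).

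Thbs4, the closest relative of Comp, had a median of 91.2, 452, and 3850 normalized reads at E13, E14, and E16, without overlap between the stages, and rose by 1.94 ± 0.37 and 2.83 ± 0.36 on the log2 scale. The left tooth of embryo 3 at E16 was again the lowest of its stage, at 788 compared with at least 2787. Matn2 had medians of 645, 735, and 848 normalized reads and was called between E13 and E16 (0.36 ± 0.11, adjusted p = 0.0133) and not at either step, although without the left tooth of embryo 3 at E16 it was also called between E14 and E16 (0.30 ± 0.11, adjusted p = 0.0321).

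Sox8, the near relative of Sox9, was highest at E14, where it had risen by 2.27 ± 0.32, and fell by 1.54 ± 0.31 at E16. Sox13, which belongs to the same group as Sox5 and Sox6, followed the same course with 0.90 ± 0.11 and -0.79 ± 0.11. Sox10, a gene of Schwann cells and other neural crest cells, had changes of -0.49 ± 0.28 and -0.34 ± 0.28 that did not pass the test, and was lower at E16 than at E13 (-0.83 ± 0.28, adjusted p = 0.0208). This call was lost when 1 of 3 teeth was left out (adjusted p of 0.0514 to 0.0625), namely the left tooth of embryo 7 at E13 and the left tooth of embryo 5 and right tooth of embryo 6 at E16. Of the 15 relatives listed, 12 were tested, and 7 rose and 1 fell at E14 compared with E13, whereas 3 rose and 2 fell at E16 compared with E14. Of all genes tested, 11.3% rose and 8.47% fell at the first step, and 15% rose and 13.1% fell at the second. The gene that fell at the first step was Ncan, which reached the filter only through the E13 teeth, where it is high. Its call was lost when any 1 of 11 teeth was left out (adjusted p of 0.0519 to 0.0916). The call of Vcan, counted among the 7 that rose, was lost with any 1 of 8 teeth left out (0.0526 to 0.0877).

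**Figure D3:**
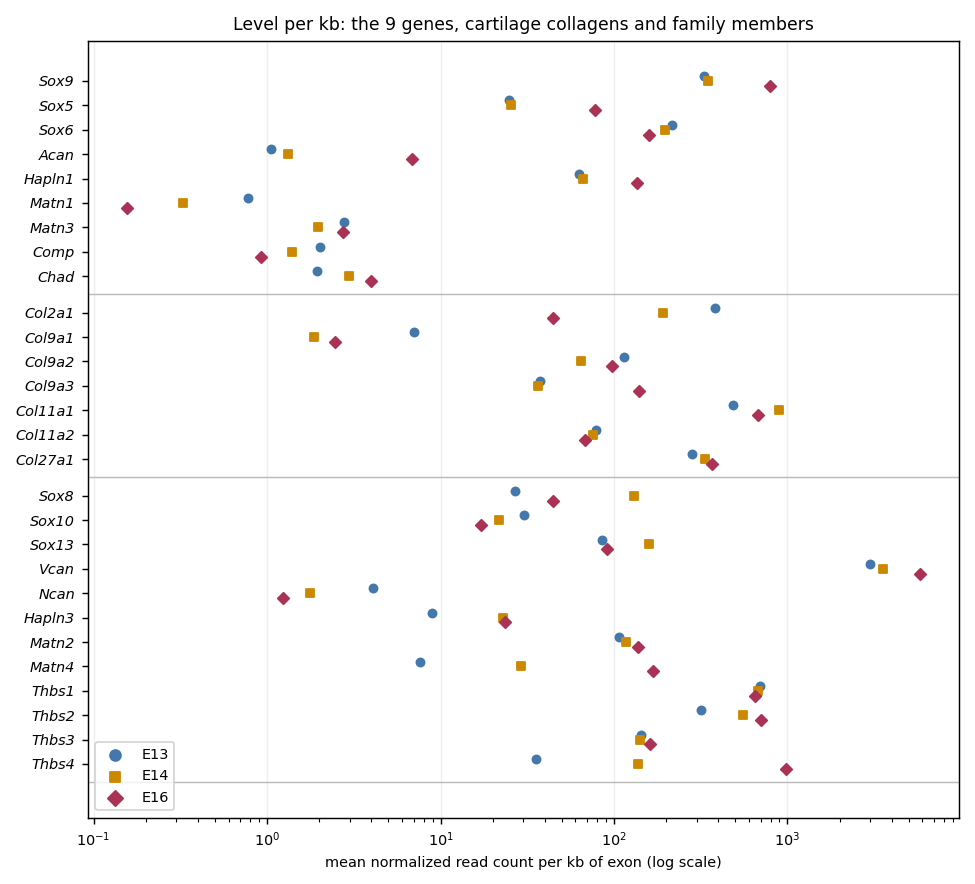
Mean normalized read count per kb of exon (horizontal axis, log scale) at E13, E14, and E16 for the 9 members, 7 cartilage collagens, and 12 relatives of the members, with 1 symbol per stage, each a mean of 7 teeth. Acan, Matn1, Matn3, Comp, and Chad lie below 10 at all stages, whereas Sox9, Sox6, Hapln1, Col2a1, Vcan, Matn2, and Thbs1 lie above 10 at all stages.

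Of the 5 members tested, Acan and Sox9 varied most between teeth of one stage. The coefficient of variation between teeth beyond counting error was 31.3% for Sox9, where the trend over genes of similar level was 15.1%, and its ratio to the trend was at the 99.0th percentile of the 19101 genes. It was 50.1% for Acan (trend 41.9%), 12.6% for Sox5, 13.1% for Sox6, and 13.2% for Hapln1, the last 3 below their trends. The value of Sox9 rested largely on the left tooth of embryo 3 at E16, and without it was 15.4% (trend 10.7%, 94.7th percentile of 19238 genes). That of Acan was then 44.1%, and that of Sox6 was 12.1% and above its trend of 10.4%. These are descriptions of the spread within stages and were not tested.

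**Figure D4:**
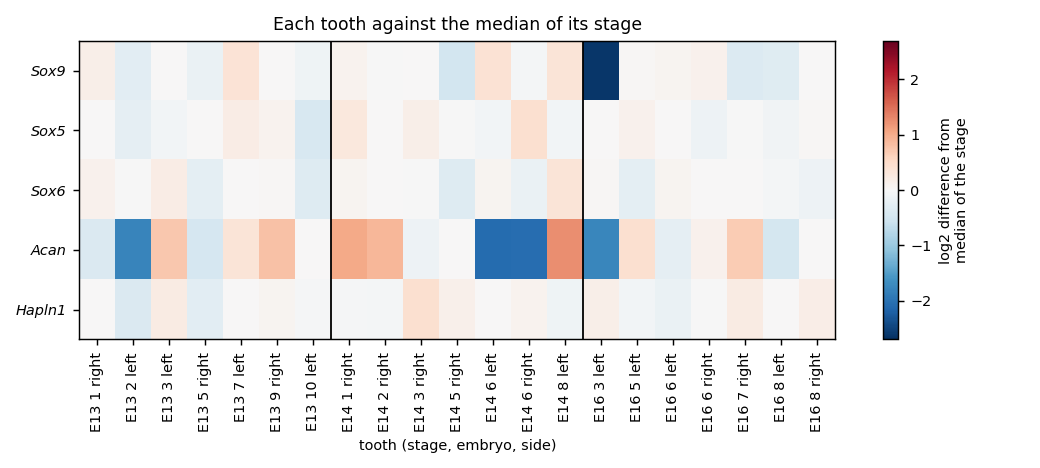
Log2 difference of each tooth (horizontal axis: stage, embryo, and side) from the median of its stage for the 5 members tested (rows), with blue below and red above the median. Sox9 in the left tooth of embryo 3 at E16 is at -2.63, and Acan varies by more than 1 in several teeth, whereas Sox5, Sox6, and Hapln1 stay within 0.44 of the median.

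Single teeth also differed in genes that mark cartilage, bone, hypertrophic cartilage, and skeletal muscle. The left tooth of embryo 8 at E14 had the highest level of that stage in Acan (19.1), Sox6 (3694), Matn1 (3.64), and Col2a1 (2735). It also had a Comp of 0 and the lowest Hapln1 (340) and Sox5 (320). Its sum of cartilage collagens was 22805, compared with at most 19113 in the other E14 teeth. That of the other cartilage matrix and surface genes was 1762, compared with at most 1699. Col11a1 (14509, most of the collagen sum), Col11a2, Col9a2, Itga10, and Pth1r were highest in it. Col9a1, Col9a3, Col27a1, Matn4, Prelp, and Cnmd were highest in other E14 teeth, and its sum of cartilage regulators was within the range. It also had the highest Ibsp, a gene of bone, at 12395 compared with at most 2663 in the other E14 teeth. Its sum of the 4 hypertrophic genes was the highest too, at 1675 compared with 271 to 849. Most of that sum was Panx3, at 1576. The left tooth of embryo 7 at E13 had a sum of 11 skeletal muscle genes of 29492, compared with 833 to 4751 in the other E13 teeth. It was the highest of its stage in Sox9 (1760) and Sox5 (426) and was not the highest in the other members. The part of these differences in the members' values was not tested.

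In 3 embryos of the first table both molars were counted, which gives the difference within an embryo. Sox9 had 1797 in the left and 1327 in the right tooth of embryo 6 at E14, 4115 and 4217 in embryo 6 at E16, and 3103 and 3904 in embryo 8 at E16. Acan had 1.90 and 1.93, 43.4 and 55.9, and 37.1 and 51.5 in the same order. At E14 these Acan values are 2 reads in each tooth of a single embryo. Sox5 in the same embryo had 322 and 455, nearly the whole E14 range of 320 to 455. When the teeth of one embryo were summed and the embryos compared, the same 5 members were called between E14 and E16.

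In the second table, where counts were estimated with salmon, E15 teeth can be set between E13 and E16. Normalized estimated counts of Sox5 were 260, 339, and 394 (lowest, median, and highest) at E13, 624, 677, and 697 at E15, and 885, 989, and 1133 at E16. The 3 stages did not overlap. Sox5 rose by 1.05 ± 0.10 on the log2 scale from E13 to E15 (edgeR, adjusted p = 1.82e-08) and by 0.56 ± 0.10 from E15 to E16 (adjusted p = 0.000449). In this table, 26.8% of 13447 genes were called between E13 and E15 and 6.33% between E15 and E16. The labels describe the dissection and RNA extraction of the E15 teeth separately, so that stage and any difference in handling cannot be told apart.

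Sox9 had 1512, 2123, and 2921 normalized estimated counts (lowest, median, and highest) at E15, compared with 1064 to 1703 at E13. It rose by 0.76 ± 0.26 from E13 to E15 (adjusted p = 0.0297), and the change from E15 to E16 of 0.50 ± 0.26 did not pass the test (adjusted p = 0.324). Acan had 6.30, 20.5, and 37.8 at E15, where 3 teeth were above 31 and 3 below 10, compared with 2.12 to 12.7 at E13 and 16.1 to 77.3 at E16. It rose by 1.47 ± 0.47 from E13 to E15 (adjusted p = 0.0238), and the change from E15 to E16 of 1.19 ± 0.44 did not pass the test (adjusted p = 0.125). Acan and Sox9 did not go together in every E15 tooth. The left tooth of embryo 3 had 37.8 of Acan and 1700 of Sox9. In the right tooth of embryo 6 there were 9.75 of Acan and 2921 of Sox9. Chad was split in the same way as Acan. It had 14.3, 13.7, and 19.0 in the 3 teeth with high Acan (embryo 3 left, embryo 4 right, and embryo 5 left) and at most 0.97 in the other 3. The overlap of Chad with Acsf2 applies here as well.

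Hapln1 had 135, 411, and 486 at E15, overlapping with the E13 range of 278 to 439, and rose by 1.03 ± 0.19 only from E15 to E16 (adjusted p = 0.00126; 0.12 ± 0.19 from E13 to E15, adjusted p = 0.677). The lowest E15 value was the right tooth of embryo 4, with the next at 385. Sox6 ranged from 2110 to 3246 at E15 and was called in neither step (-0.16 ± 0.11 and -0.27 ± 0.11). Its fall from E13 to E16 was called in this table too (-0.42 ± 0.11, adjusted p = 0.00279), as were 36.4% of the genes in this comparison. Matn3 passed the filter in this table and was called in neither step (-0.24 ± 0.65, adjusted p = 0.819, and 0.24 ± 0.65, adjusted p = 0.913).

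**Figure D5:**
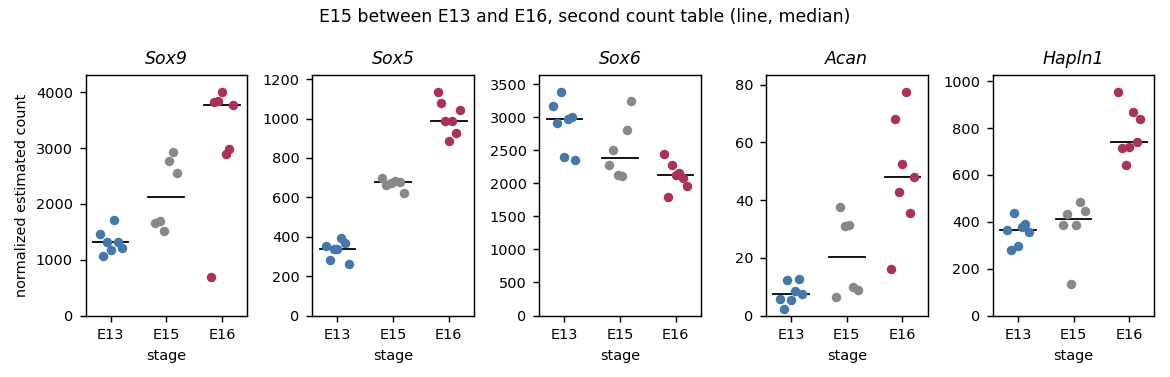
Normalized estimated counts (vertical axes from 0) in 7 E13, 6 E15, and 7 E16 teeth of the second table, with a line at the median. The genes are the 5 members tested in the first table. The E15 teeth lie between the other stages in Sox5 without overlap (624 to 697), are split in Acan (6.30 to 37.8), and stay at or below 486 in Hapln1.

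The variation of the members from tooth to tooth was compared within stages. After the stage means were subtracted, the Pearson correlations of log2 CPM across the 21 teeth were between -0.18 and 0.46 for the 10 pairs of the 5 tested members. The highest, of Sox9 and Acan, was 0.46, and that of Sox5 and Sox6 was 0.03. Without the left tooth of embryo 3 at E16, the correlation of Sox9 and Acan became 0.20, whereas that of Sox9 and Sox6 went from 0.11 to 0.43 and was then the highest. All genes share the libraries, and these values are given as a description.

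The genes whose tooth-to-tooth pattern was closest to the mean of the 6 matrix members were Lmod1 (r = 0.80), Rundc1 (0.77), Tnfaip2 (0.77), Ccdc80 (0.76), Dcc, Wnt7b, Vav1, Arhgap25, Aldh3b2, and Nefm (0.72 to 0.74) over 21 teeth. None of the 30 other cartilage genes was among these 10, but the 9 below the filter on low counts could not appear. Only genes that passed the filter were ranked. The mean itself includes Matn1, Matn3, Comp, and Chad, which were below it, so no conclusion is drawn from this absence. Without the 2 teeth farthest from the median, the left teeth of embryo 6 at E14 and of embryo 3 at E16, the correlations of the 10 were between 0.48 and 0.66. For Sox9 alone the closest genes were Gltp (r = 0.98, 0.91 without the 2 farthest teeth), Zfhx3, Pom121, Prmt5, and Bak1 (0.97 to 0.98). For Sox6, the closest 5 included Panx3 (r = 0.77), whose highest E14 value was in the left tooth of embryo 8.

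The label of the gene set was checked against these values. Of the 9 genes, the 5 that in this list are largely limited to cartilage and related tissue (Acan, Matn1, Matn3, Comp, and Chad) together had 875 reads in the 21 teeth. Outside the 9 genes, other genes known from cartilage had more, with 39876 reads for Col2a1, 6057 for Col9a2, and 5923 for Col9a3, and Cnmd had a median of 45.0 normalized reads at E13. The data thus give the levels of genes that cartilage uses, in whole molars, and whether cartilage was part of the samples was not tested.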

How the data were processed

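RNAseq was done on single molar tooth germs. Reads had been quality-filtered by the authors (Trimmomatic, AfterQC, and FastQC) and mapped onto GRCm38 by STAR, and HTSeq gave the raw counts per gene that they deposited. The second table holds estimated counts that the authors deposited from Salmon 0.99.0 (per the labels), in whole numbers for 14185 genes, without Matn1 and with 6 of the E15 teeth. STAR versions and the strand setting were not given in the sources used here.

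Levels are counts divided by DESeq2 1.42.0 size factors over the 21 libraries, and separately over the 20 libraries of the second table. Stages were compared with edgeR 4.0.16 (quasi-likelihood test, TMM, filterByExpr, R 4.3.3), with the 21 teeth in one fit, stage as the factor, and Benjamini-Hochberg adjustment over 19101 genes. The SE is the log2 fold change divided by the square root of F. Genes were named with GENCODE (GRCm38), in which 147 identifiers were absent. The libraries held 17814073 to 27115729 counts, and beyond counting error the teeth varied by 21.2% for a typical gene. Teeth of one embryo were counted as separate samples, and p values measure the spread between teeth.

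The members and all gene lists were chosen with earlier results of these data known. Besides the members, genes were named from each list by level (up to 4), by the largest called change in a comparison (up to 3), or by likeness to the matrix members (10), and further genes of the lists were named after their values were seen. One gene of the tooth epithelium list is not reported here. Tests were checked on simulated counts. Between simulated E14 and E16 teeth (18838 genes), 42.2% of the genes changed by 0.5 on the log2 scale were recovered, 75.4% of those changed by 1, and 92.6% of those changed by 2. Alternatives were other size factors, DESeq2, 2 other filters, side as a factor, teeth of one embryo summed, each tooth left out, and the second table.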

Additional observations from a re-analysis of the deposited data

Results flagged for a closer look

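In 35 groups of teeth examined (a member at a stage in one table), 3 single teeth lay farther from the rest of their stage than Dixon's 95% critical value allows, and chance flags about 1 in 20 groups. Distances were taken on the log2 scale with 1 added to each value. Sox9 had a normalized read count of 629 in the left tooth of embryo 3 at E16, with the next tooth at 3025. Matn1 had 10.8 in the right tooth of embryo 5 at E13, which is 10 reads, with 0 in the other 6 teeth. With 6 teeth at 0, any count in the remaining tooth is flagged, so the rate of 1 in 20 does not apply to Matn1 here. Hapln1 had 135 normalized estimated counts in the right tooth of embryo 4 at E15, with the next tooth at 385.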

How the results depend on the processing

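The 5 members tested gave 15 log2 fold changes, which were recomputed 425 times under the alternatives. In 424 of these the direction of a called change and the side of the threshold were kept. The exception was Sox6 between E14 and E16, which was no longer called without the left tooth of embryo 8 at E14 (adjusted p = 0.0535, range over all alternatives 0.00507 to 0.0535). The number of members called was 0 in all alternatives between E13 and E14, 4 to 5 between E14 and E16, and 5 between E13 and E16, and that of the other cartilage genes was 10 to 12, 11 to 13, and 13 to 15. With the left teeth of embryo 3 at E16 and embryo 7 at E13 left out together, a choice made after seeing the data, 0, 5, and 5 members were called. The log2 fold change of Sox9 between E14 and E16 ranged from 1.13 to 1.39 and that of Acan from 2.17 to 2.59. None of the 27 stage levels of the members moved by more than 1 SD with TMM. Of 20 correlations with the mean of the matrix members that were recomputed as Spearman's rho or without 2 teeth, 15 moved by 0.1 or more. The anchors other than this mean, the E15 tests, the promoter letters, the tests of the other listed genes without each tooth, and the spread without a tooth were added after seeing the data. No paired analysis was possible because the teeth of different stages came from different embryos. Depth limits Matn1, Matn3, Comp, and Chad, whose log2 fold changes between E13 and E16 had an SE of 0.57 to 1.30.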
